A study of Mus musculus with 12 samples.

Results

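Transcripts of the contractile apparatus of skeletal muscle were followed in murine neuroblastoma tumors after high intensity focused ultrasound (HIFU). The set holds 42 genes chosen by name: 14 whose products mark fast fibers, 11 that mark slow fibers and 17 listed for both. Each of the 42 genes was found on 1 probe set among 22206, which name 19505 genes in all. The samples were 12 tumors grown from inoculated neuroblastoma cells in mice of the inbred A/J strain, 3 untreated controls and 3 tumors each labelled HIFU at 24, 48 and 72 h, with mechanical fractionation of the tissue as the stated mode. The sources used here do not name the line that was inoculated, the ages of the mice, the site of the tumors or whether each tumor had its own mouse. P-values therefore describe the spread among these samples, part of which may be technical. The hours were read as time after HIFU, which the labels do not settle. Values are log2 signals of Affymetrix Clariom S arrays, 1 array per tumor, and differences are log2 differences, with base 2 read from the range of the values.

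A skeletal muscle fiber shortens when myosin heads of the thick filament pull on actin of the thin filament within the sarcomere. Calcium released from the sarcoplasmic reticulum through the ryanodine receptor binds troponin C, troponin I and troponin T then move tropomyosin off the actin sites, and the pump SERCA returns the calcium. Fast and slow fibers build this machine from different genes for myosin heavy and light chains, the 3 troponin subunits, myosin-binding protein C, calsequestrin and SERCA. In rodents most limb and trunk muscles are rich in fast fibers, and several of the slow isoforms are also those of the heart.

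The 12 arrays had medians between 5.43 and 5.68 and upper ends between 19.41 and 19.93. Arrays of a group correlated with r between 0.951 and 0.993 over all probe sets, and arrays of different groups with r between 0.915 and 0.988. Dbh, dopamine beta-hydroxylase, a sympathetic marker, read 11.99, 14.13 and 16.11 in the controls, 15.10, 15.78 and 13.79 at 24 h, 15.18, 14.19 and 16.46 at 48 h and 15.73, 13.84 and 16.27 at 72 h. Of the 9 neuroblastoma and sympathetic markers measured, 5 were higher and 4 lower in the mean of the HIFU groups than in the controls. Their differences ran from -1.11 to 1.07, with Dbh the highest. Skeletal muscle is not a labelled tissue of any group. In these bulk samples more muscle cells and more RNA per muscle cell cannot be told apart. Control replicate 3 stood apart from the other controls: it held the highest control signal for 39 of the 42 genes. HIFU_72h replicate 2 gave the highest of all 12 signals for 27 of them and HIFU_24h replicate 1 for 13.

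Most contractile genes had higher signals in the HIFU tumors than in the controls, but the controls also varied and 0 of them passed the test over all probe sets. The median of the 42 differences was 2.95 at 24 h, 3.19 at 48 h and 3.08 at 72 h, beside medians over all probe sets of 0.00, 0.01 and -0.06. For the HIFU mean, taken over the 3 times, it was 3.12, with 39 genes higher and 3 lower, beside -0.01 over all probe sets. Of the 42 genes 0 passed in limma at an adjusted p under 0.05 at any time or for the mean, where 0.0495% (24 h), 0.0045% (48 h), 0.00901% (72 h) and 0.018% (mean) of all probe sets passed upward. The smallest adjusted p among them was 0.21, 0.199, 0.255 and 0.105 in the same order. At an unadjusted p under 0.05, 28, 30, 33 and 33 of the 42 were higher, beside 3.98%, 5.3%, 5.85% and 6.01% of all probe sets. All 3 HIFU arrays lay above all 3 controls for 21 genes at 24 h, 31 at 48 h and 20 at 72 h, beside 6.84%, 10.3% and 8.99% of all probe sets. All 9 HIFU arrays did so for 13 genes, beside 1.76% of all probe sets.

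The counts of genes that passed depended on control replicate 3. Without it 6, 6, 4 and 13 genes passed at 24, 48 and 72 h and for the mean, the 13 being Myh1, Myh2, Myh4, Myl1, Tnni2, Tnnt3, Myoz1, Atp2a1, Mybpc1, Acta1, Actn2, Ttn and Neb. Of all probe sets 1.14%, 1.41%, 0.874% and 1.79% passed there, in either direction and the same order. With array weights, from 0.306 for HIFU_72h replicate 2 to 4.2 for control replicate 2, and 0.715 for control replicate 3, 30, 20, 28 and 35 of the 42 passed. Of all probe sets 5.03%, 4.25%, 8.31% and 17.1% passed with these weights in either direction.

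**Figure D1:**
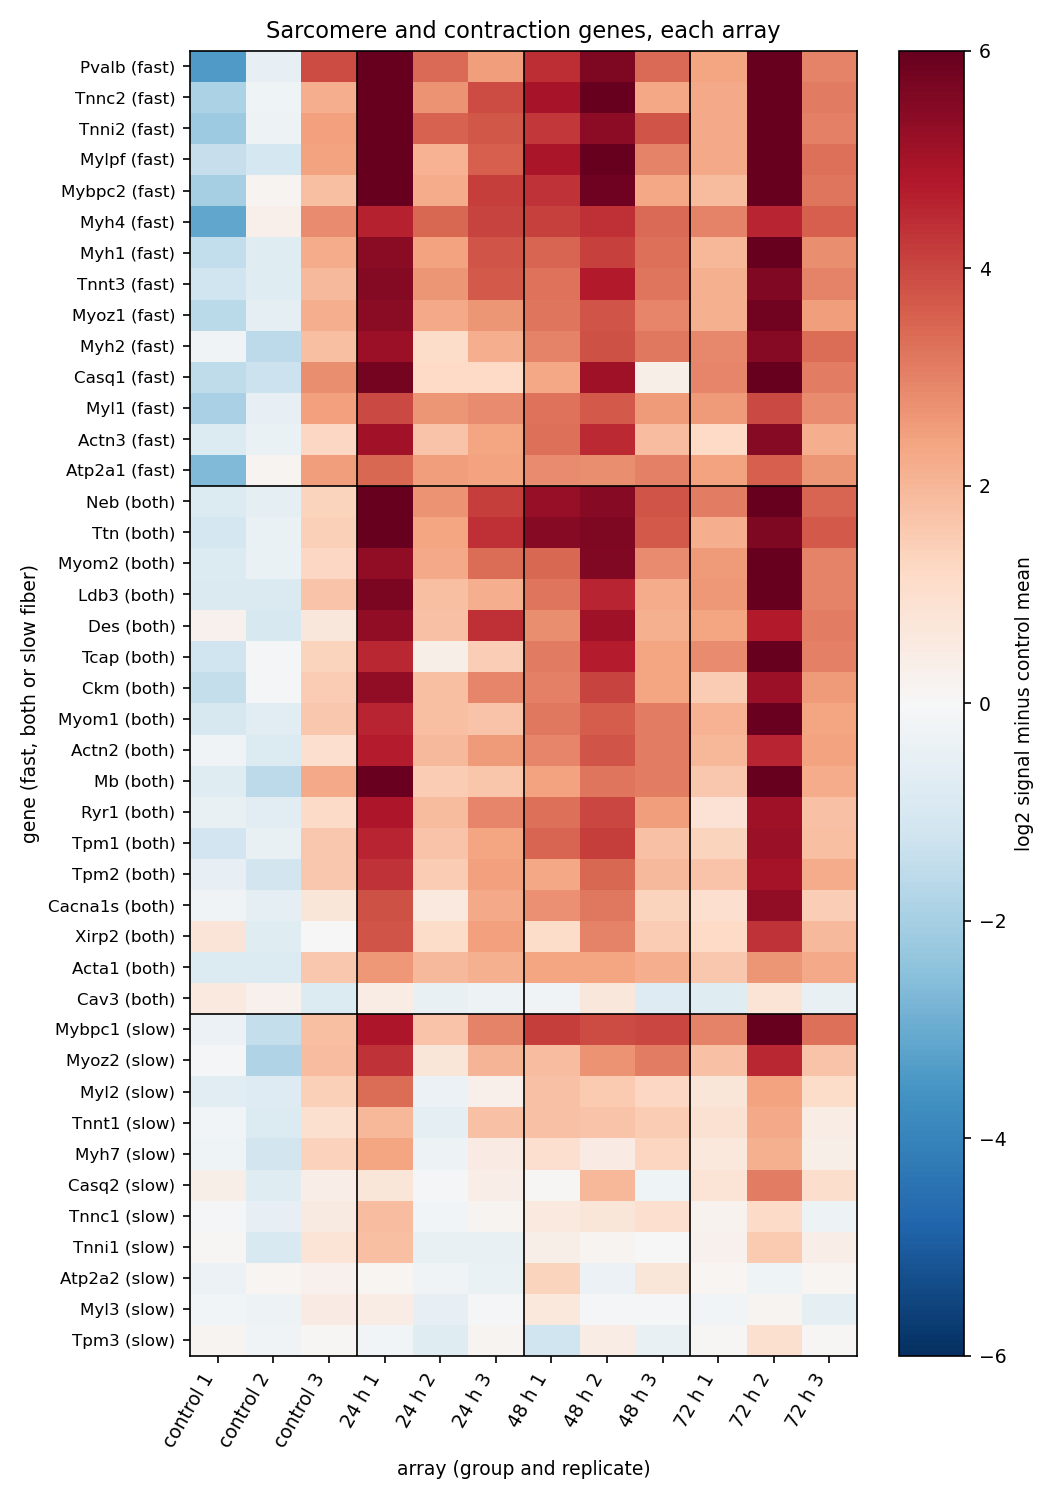
Log2 signal of each of the 42 genes on each array minus the mean of the 3 controls, with red for higher and blue for lower and genes grouped as fast, both or slow. HIFU_24h replicate 1 and HIFU_72h replicate 2 are the reddest columns, control replicate 3 is redder than the other controls, and most slow genes stay pale.

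Fast fiber genes had the largest median difference. All 14 were higher in the HIFU mean, by 2.84 to 4.45 with a median of 3.77. In 5 of them all 9 HIFU arrays lay above all controls, beside 1.76% of all probe sets. Among the myosin heavy chains, Myh4 (probe set TC1100000855.mm.2), the 2B chain of the fastest fibers, read 11.98, 15.42 and 17.95 in the controls, 19.74, 18.54 and 19.17 at 24 h, 19.20, 19.51 and 18.50 at 48 h and 18.08, 19.70 and 18.72 at 72 h. All 9 HIFU arrays exceeded the highest control, and the mean difference was 3.90 ± 0.91 SE or 14.9-fold (limma, adjusted p = 0.127). Without control replicate 1 it was 2.33. From the same gene cluster on chromosome 11, Myh1 for the 2X chain and Myh2 for the 2A chain differed by 3.78 ± 1.01 SE for Myh1 (adjusted p = 0.152) and by 3.34 ± 0.87 SE for Myh2 (adjusted p = 0.147). For Myh1 the signals were 7.09, 7.85 and 10.79 in the controls, 14, 10.97 and 12.35 at 24 h, 12.08, 12.69 and 11.86 at 48 h and 10.57, 15.32 and 11.36 at 72 h. For Myh2 they were 10.42, 9.05 and 12.45 in the controls, 15.78, 11.72 and 12.82 at 24 h, 13.63, 14.44 and 13.80 at 48 h and 13.54, 16.08 and 13.99 at 72 h. In both, 8 of 9 HIFU arrays lay above control replicate 3, with HIFU_72h replicate 1 below it for Myh1 and HIFU_24h replicate 2 for Myh2. The 3 chains are close paralogs, so how far the probe sets keep them apart was not tested.

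Fast light chains gave the same picture. Myl1 (probe set TC0100002497.mm.2), the essential light chain of fast myosin, read 13.88, 15.30 and 18.26 in the controls, 19.78, 18.44 and 18.67 at 24 h, 19.08, 19.51 and 18.35 at 48 h and 18.35, 19.76 and 18.63 at 72 h. Its HIFU arrays were all above its controls, and it differed by 3.14 ± 0.72 SE (adjusted p = 0.127). Mylpf (probe set TC0700001837.mm.2), the fast regulatory light chain, read 9.59, 9.95 and 13.41 in the controls, 17.22, 13.06 and 14.55 at 24 h, 15.87, 17.15 and 13.96 at 48 h and 13.26, 17.96 and 14.31 at 72 h, a difference of 4.28 ± 1.18 SE or 19.4-fold (adjusted p = 0.157). Here HIFU_24h replicate 2 and HIFU_72h replicate 1 fell just short of control replicate 3.

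The 3 fast troponin subunits had differences close to each other. Tnni2 (probe set TC0700002076.mm.2), the inhibitory subunit, read 7.77, 9.62 and 12.42 in the controls, 16.42, 13.47 and 13.65 at 24 h, 14.20, 15.32 and 13.71 at 48 h and 12.20, 16.31 and 12.94 at 72 h, and differed by 4.31 ± 1.04 SE or 19.8-fold (adjusted p = 0.133). HIFU_72h replicate 1 alone lay under control replicate 3. Tnnt3 (probe set TC0700002079.mm.2), the subunit that binds tropomyosin, read 12.26, 12.74 and 15.41 in the controls, 18.98, 16.14 and 17.17 at 24 h, 16.72, 18.21 and 16.67 at 48 h and 15.61, 19.04 and 16.46 at 72 h, a difference of 3.75 ± 0.85 SE (adjusted p = 0.127) with no overlap of the groups. Tnnc2 (probe set TC0200005130.mm.2), the calcium-binding subunit, read 6.13, 7.74 and 10.19 in the controls, 15.16, 10.73 and 11.94 at 24 h, 12.98, 14.02 and 10.36 at 48 h and 10.28, 14.72 and 11.14 at 72 h and differed by 4.35 ± 1.21 SE or 20.4-fold (adjusted p = 0.161). Its lowest HIFU array, HIFU_72h replicate 1, was only just above control replicate 3.

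Mybpc2 (probe set TC0700002966.mm.2), fast myosin-binding protein C of the thick filament, read 4.40, 6.56 and 8.22 in the controls, 12.44, 8.63 and 10.53 at 24 h, 10.73, 12.21 and 8.73 at 48 h and 8.28, 12.60 and 9.59 at 72 h and differed by 4.02 ± 1.10 SE (adjusted p = 0.156). The groups did not overlap, though control replicate 3 came close to HIFU_72h replicate 1. Actn3 (probe set TC1900000939.mm.2), the alpha-actinin that anchors thin filaments at the Z-disc of fast glycolytic fibers, read 9.26, 9.66 and 11.31 in the controls, 15.13, 11.79 and 12.45 at 24 h, 13.38, 14.55 and 11.92 at 48 h and 11.27, 15.52 and 12.27 at 72 h, a difference of 3.07 ± 0.94 SE (adjusted p = 0.194). Myoz1 (probe set TC1400001545.mm.2), the Z-disc protein calsarcin-2, read 6.18, 7.25 and 9.99 in the controls, 13.21, 10.09 and 10.44 at 24 h, 11.03, 11.59 and 10.72 at 48 h and 9.93, 13.59 and 10.33 at 72 h and differed by 3.41 ± 0.94 SE (adjusted p = 0.156). In these last 2 genes HIFU_72h replicate 1 lay under control replicate 3 and the other 8 HIFU arrays above it.

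Calcium-handling genes of fast fibers overlapped more between groups. Atp2a1 (probe set TC0700004279.mm.2), the fast SERCA1 pump, read 13.70, 16.48 and 18.83 in the controls, 19.78, 18.83 and 18.73 at 24 h, 19.18, 19.12 and 19.34 at 48 h and 18.74, 19.90 and 18.98 at 72 h and differed by 2.84 ± 0.77 SE (adjusted p = 0.153), with 6 of 9 HIFU arrays above the highest control. Without control replicate 1 the difference was 1.52. Casq1 (probe set TC0100003564.mm.2), the calcium store protein calsequestrin 1, read 6.73, 7.0 and 11.07 in the controls, 13.99, 9.45 and 9.44 at 24 h, 10.57, 13.33 and 8.64 at 48 h and 11.18, 16.17 and 11.32 at 72 h, a difference of 3.30 ± 1.44 SE (adjusted p = 0.326), with 5 of 9 HIFU arrays above the highest control. Pvalb, the calcium buffer parvalbumin of the fastest fibers, read 5.17, 8.06 and 12.49 in the controls, 16.13, 11.96 and 11.06 at 24 h, 12.98, 14.17 and 11.95 at 48 h and 10.95, 16.47 and 11.57 at 72 h. It had the largest difference of the 42, 4.45 ± 1.57 SE, and also the widest error (adjusted p = 0.241), with 4 of 9 HIFU arrays above control replicate 3. Without control replicate 1 it was 2.75, below that of Neb, whose lowest value with 1 array left out was 4.02.

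Acta1 lay within 1 log2 unit of its array's highest value on 8 arrays, Atp2a1 on 7, Myh4 and Myl1 on 5 each and Tnnt3 on 2, and the other 37 genes on 0. How far the upper end limits the differences of these 5 genes was not tested.

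Slow fiber genes were closer to the controls than fast ones. Of the 11, 9 were higher and 2 lower in the HIFU mean, with a median of 0.86 and a range from -0.09 to 3.82. Of the 11, 0 had all 9 HIFU arrays above all controls, beside 1.76% of all probe sets. At an unadjusted p under 0.05 (limma) 2, 3, 3 and 3 of the 11 were higher at 24, 48 and 72 h and for the mean. These are 18.2% at 24 h and 27.3% in the others, beside 3.98%, 5.3%, 5.85% and 6.01% of all probe sets. Myh7 (probe set TC1400002075.mm.2), the slow myosin heavy chain shared with the heart, read 6.38, 5.56 and 8.03 in the controls, 9.01, 6.34 and 7.15 at 24 h, 7.68, 7.16 and 7.93 at 48 h and 7.29, 8.77 and 7.01 at 72 h and differed by 0.94 ± 0.61 SE (adjusted p = 0.518). Control replicate 3 exceeded 7 of its 9 HIFU arrays. Myl2 (probe set TC0500001379.mm.2), the slow and ventricular regulatory light chain, read 5.70, 5.59 and 7.82 in the controls, 9.70, 6.01 and 6.69 at 24 h, 8.15, 7.96 and 7.63 at 48 h and 7.08, 8.77 and 7.45 at 72 h, a difference of 1.35 ± 0.71 SE (adjusted p = 0.414). Myl3 (probe set TC0900001468.mm.2), the slow and ventricular essential light chain, read 4.64, 4.52 and 5.30 in the controls, 5.26, 4.33 and 4.77 at 24 h, 5.45, 4.69 and 4.69 at 48 h and 4.67, 5.0 and 4.28 at 72 h and differed by -0.03 ± 0.27 SE (adjusted p = 0.978). Its 4 groups overlapped throughout.

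Slow troponins showed small differences. Tnni1 (probe set TC0100003869.mm.2), slow troponin I, read 5.12, 4.14 and 5.87 in the controls, 6.87, 4.59 and 4.59 at 24 h, 5.39, 5.22 and 5.08 at 48 h and 5.28, 6.62 and 5.46 at 72 h, a difference of 0.41 ± 0.51 SE (adjusted p = 0.763). Tnnt1 (probe set TC0700002160.mm.2), slow troponin T, read 8.62, 7.97 and 9.73 in the controls, 10.78, 8.20 and 10.51 at 24 h, 10.53, 10.47 and 10.30 at 48 h and 9.68, 11.06 and 9.23 at 72 h and differed by 1.31 ± 0.56 SE (adjusted p = 0.312), with 6 of 9 HIFU arrays above all controls. Tnnc1 (probe set TC1400000324.mm.2), the troponin C of slow and heart muscle, read 7.66, 7.22 and 8.26 in the controls, 9.56, 7.54 and 7.90 at 24 h, 8.31, 8.45 and 8.70 at 48 h and 7.94, 8.85 and 7.43 at 72 h, a difference of 0.58 ± 0.42 SE (adjusted p = 0.559). For each of the 3 subunits HIFU_24h replicate 1 was higher than the other 24 h arrays.

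The exceptions among slow genes were Mybpc1 and Myoz2. Mybpc1 (probe set TC1000002646.mm.2), the myosin-binding protein C named for slow fibers though fast fibers also make it, read 9.82, 8.77 and 11.99 in the controls, 15.04, 11.89 and 13.17 at 24 h, 14.34, 14.11 and 14.19 at 48 h and 13.17, 16.67 and 13.50 at 72 h. Of its 9 HIFU arrays 8 exceeded control replicate 3, and it differed by 3.82 ± 0.85 SE or 14.1-fold (adjusted p = 0.126). Myoz2 (probe set TC0300002870.mm.2), calsarcin-1 of slow fibers and heart, read 8.25, 6.53 and 10.16 in the controls, 12.67, 9.05 and 10.35 at 24 h, 10.16, 11 and 11.37 at 48 h and 10.06, 12.86 and 10.03 at 72 h and differed by 2.53 ± 0.88 SE (adjusted p = 0.239), with 5 of 9 above control replicate 3.

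Casq2 (probe set TC0300001023.mm.2), calsequestrin 2 of slow fibers and heart, read 3.90, 2.83 and 3.93 in the controls, 4.28, 3.42 and 3.96 at 24 h, 3.62, 5.53 and 3.31 at 48 h and 4.37, 6.63 and 4.62 at 72 h, a difference of 0.86 ± 0.55 SE (adjusted p = 0.506). Its control signals lie near the lower quartile of the arrays, which was between 3.45 and 3.76. Atp2a2 (probe set TC0500003212.mm.2), SERCA2, which most cell types make as well, read 13.71, 14.16 and 14.32 in the controls, 14.20, 13.84 and 13.67 at 24 h, 15.41, 13.72 and 14.77 at 48 h and 14.18, 13.79 and 14.18 at 72 h and differed by 0.13 ± 0.30 SE (adjusted p = 0.891). Tpm3, a tropomyosin of slow fibers that also has non-muscle forms, read 16.32, 15.97 and 16.24 in the controls, 16.00, 15.45 and 16.34 at 24 h, 15, 16.61 and 15.74 at 48 h and 16.27, 17.14 and 16.24 at 72 h and differed by -0.09 ± 0.33 SE (adjusted p = 0.939). Several slow differences moved with 1 control. Without control replicate 2, Myh7 differed by 0.39, Tnnc1 by 0.34, Tnni1 by -0.04, Casq2 by 0.50 and Myoz2 by 1.63. Without control replicate 3, Myh7 differed by 1.62, Myl2 by 2.07 and Tnni1 by 0.83. The sign of the Tpm3 difference turned with quantile normalization, to 0.05.

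**Figure D2:**
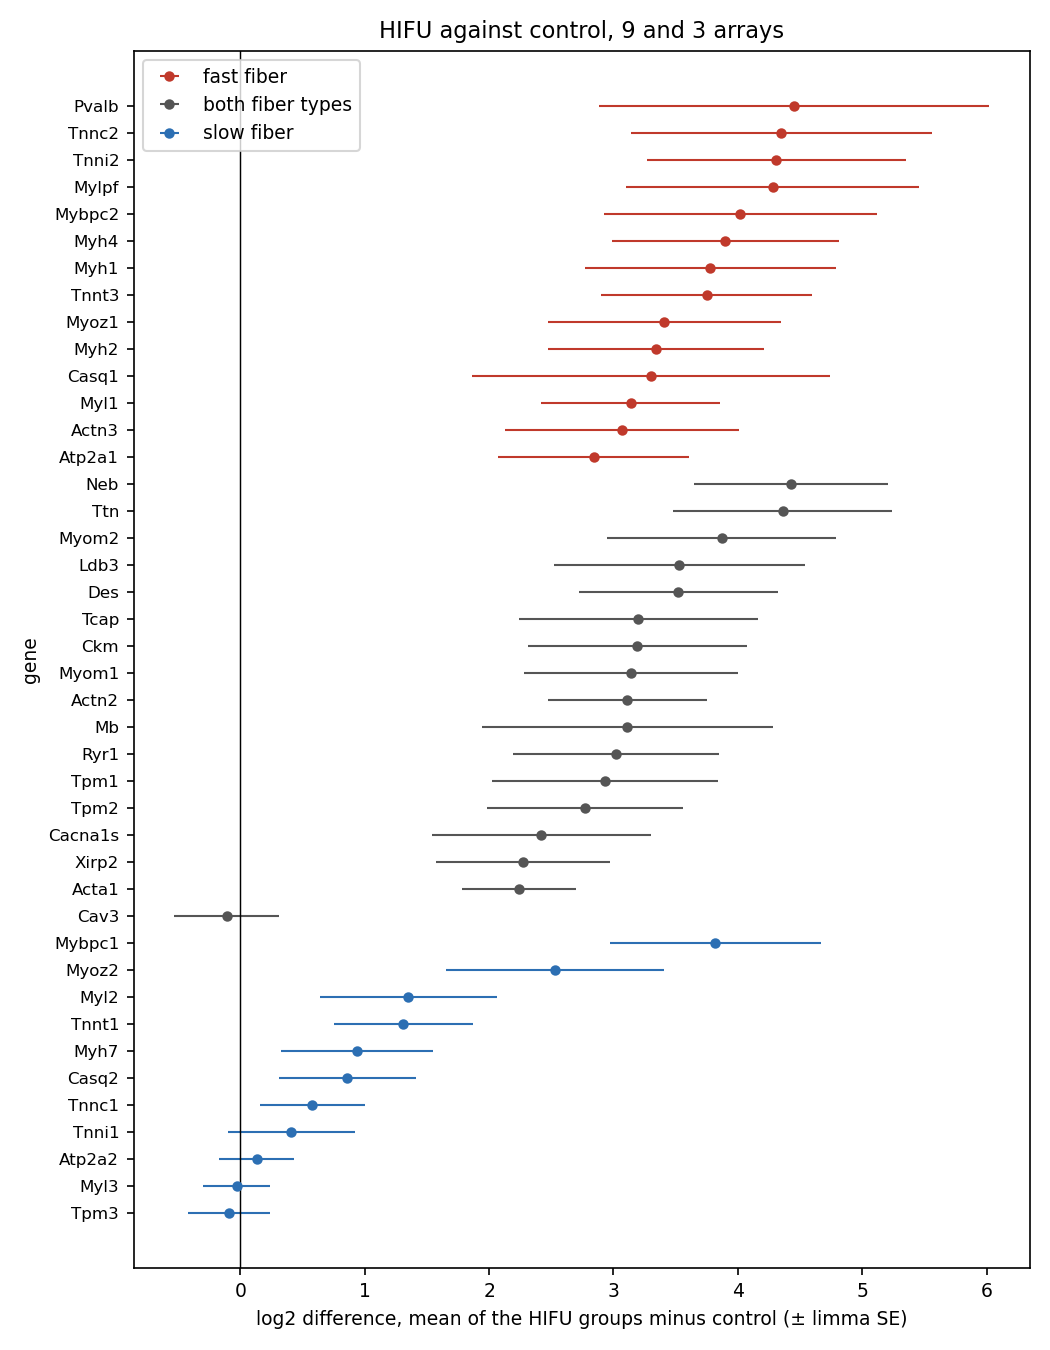
Log2 difference of each gene, mean of the 3 HIFU groups minus control, with limma standard errors (9 and 3 arrays), by fiber type. Fast genes lie between 2.84 and 4.45, genes of both fiber types between -0.11 and 4.43, and most slow genes under 1.5 with Mybpc1 (3.82) and Myoz2 (2.53) to their right.

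Genes listed for both fiber types had differences like those of the fast ones, with 16 of 17 higher and a median of 3.11. How evenly fast and slow fibers make each of these genes, Myom2 included, was not tested. Neb (probe set TC0200003529.mm.2), nebulin, which spans the thin filament, read 8.80, 9.08 and 10.97 in the controls, 15.66, 12.30 and 13.77 at 24 h, 14.83, 15.07 and 13.39 at 48 h and 12.67, 15.62 and 13.13 at 72 h. Its HIFU arrays were all above its controls and it had the smallest p of the 42 genes, at a difference of 4.43 ± 0.78 SE or 21.6-fold (adjusted p = 0.105). Without HIFU_24h replicate 2 it was the 1 gene that passed for the mean, beside 0.198% of all probe sets. Ttn (probe set TC0200003807.mm.2), titin, the spring from Z-disc to M-line, read 7.80, 8.45 and 10.30 in the controls, 15.13, 11.24 and 13.25 at 24 h, 14.32, 14.43 and 12.52 at 48 h and 11.01, 14.44 and 12.51 at 72 h and differed by 4.36 ± 0.88 SE or 20.5-fold (adjusted p = 0.125), also without overlap.

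Acta1 (probe set TC0800003161.mm.2), skeletal actin, read 16.32, 16.34 and 18.79 in the controls, 19.77, 19.11 and 19.29 at 24 h, 19.50, 19.51 and 19.31 at 48 h and 18.75, 19.82 and 19.43 at 72 h, a difference of 2.24 ± 0.46 SE (adjusted p = 0.125), with HIFU_72h replicate 1 just under control replicate 3. Actn2 (probe set TC1300001447.mm.2), the alpha-actinin of all fibers, read 10.61, 9.98 and 11.81 in the controls, 15.52, 12.75 and 13.37 at 24 h, 13.72, 14.55 and 13.86 at 48 h and 12.80, 15.35 and 13.23 at 72 h and differed by 3.11 ± 0.64 SE (adjusted p = 0.125) with no overlap. Myom2 (probe set TC0800000153.mm.2), myomesin 2 of the M-line, read 5.62, 6.03 and 7.66 in the controls, 11.74, 8.71 and 9.77 at 24 h, 9.87, 11.98 and 9.27 at 48 h and 8.98, 13.03 and 9.40 at 72 h, a difference of 3.87 ± 0.92 SE (adjusted p = 0.131), again with no overlap. Myom1, the M-line myomesin of all fibers, differed by 3.14 ± 0.86 SE.

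Des (probe set TC0100000657.mm.2), desmin, the intermediate filament between myofibrils, read 11.67, 10.47 and 12.10 in the controls, 16.75, 13.19 and 15.80 at 24 h, 14.18, 16.49 and 13.55 at 48 h and 13.79, 16.18 and 14.50 at 72 h and differed by 3.52 ± 0.80 SE (adjusted p = 0.127), with all HIFU arrays above all controls. Ckm (probe set TC0700000301.mm.2), muscle creatine kinase, read 10.35, 11.68 and 13.27 in the controls, 17.08, 13.57 and 14.70 at 24 h, 14.81, 15.81 and 14.12 at 48 h and 13.27, 16.91 and 14.31 at 72 h, a difference of 3.19 ± 0.88 SE (adjusted p = 0.156). For this enzyme HIFU_72h replicate 1 equalled control replicate 3.

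Of the remaining genes of both fiber types, the tropomyosins Tpm1 and Tpm2 differed by 2.93 ± 0.91 SE and 2.77 ± 0.79 SE, and Mb, the oxygen store myoglobin, by 3.11 ± 1.17 SE. Genes of excitation-contraction coupling were higher too, by 3.02 ± 0.83 SE for the ryanodine receptor Ryr1 and 2.42 ± 0.88 SE for Cacna1s, the voltage sensor of the T-tubule. At the Z-disc, Ldb3 (cypher) differed by 3.53 ± 1.01 SE, Tcap (telethonin) by 3.20 ± 0.96 SE and the actin-binding Xirp2 by 2.27 ± 0.70 SE. Xirp2 and Ldb3 had no overlap between HIFU arrays and controls. The adjusted p-values of these 9 genes, Myom1 included, lay in limma between 0.156 for Myom1 and 0.261 for Mb. Cav3, muscle caveolin of the cell membrane, was the exception. With a control mean of 5.35, below the array medians of 5.43 to 5.68, Cav3 gave a low signal. It read 5.94, 5.59 and 4.51 in the controls, 5.77, 4.90 and 5.06 at 24 h, 5.14, 6.03 and 4.55 at 48 h and 4.62, 6.15 and 4.91 at 72 h and differed by -0.11 ± 0.42 SE (adjusted p = 0.94).

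Fast and slow isoforms of the same protein were then compared within each array. For a pair, the log2 signal of the fast gene minus that of the slow gene was taken relative to its control mean, so that a positive value says that the fast gene exceeded its control level by more than the slow gene did. The 9 HIFU arrays were compared with the 3 controls by an exact two-sided permutation test over the 220 labellings, adjusted by Benjamini-Hochberg over the 11 pairs, where the smallest p possible is 0.00909. In Actn3/Actn2 the counterpart Actn2 is present in all fibers. The pairs share the same arrays and are not independent of each other. They were also chosen with earlier results of these data known, so their p-values are not an independent test of a fast and slow difference.

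The fast gene had the larger difference in 10 of 11 pairs, 7 of which passed the test, and the median over the 11 pairs was 2.71. Troponin I had the largest difference, 3.90 (exact permutation p = 0.00909, adjusted p = 0.02), with values of -2.24, 0.59 and 1.66 in the controls, 4.66, 3.99 and 4.17 at 24 h, 3.92, 5.21 and 3.74 at 48 h and 2.03, 4.80 and 2.59 at 72 h. Troponin C followed with 3.77 (exact permutation p = 0.0182, adjusted p = 0.0286) and values of -1.84, 0.21 and 1.62 in the controls, 5.29, 2.88 and 3.73 at 24 h, 4.36, 5.26 and 1.35 at 48 h and 2.03, 5.56 and 3.40 at 72 h. In the first all 9 HIFU arrays and in the second 8 of 9 lay above the highest control.

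For troponin T the difference was 2.44 (exact permutation p = 0.00909, adjusted p = 0.02). Myosin gave 2.96 for the heavy chains Myh4/Myh7, 3.17 for the essential light chains Myl1/Myl3 and 2.93 for the regulatory light chains Mylpf/Myl2 (exact permutation p = 0.00909, adjusted p = 0.02 for each). The SERCA pumps Atp2a1/Atp2a2 differed by 2.71 (exact permutation p = 0.0182, adjusted p = 0.0286). The heavy chain values were -2.86, 1.4 and 1.46 in the controls, 2.27, 3.74 and 3.56 at 24 h, 3.06, 3.89 and 2.11 at 48 h and 2.33, 2.47 and 3.25 at 72 h. In Tnnt3/Tnnt1 and the 3 myosin pairs all 9 HIFU arrays lay above the controls, and in Atp2a1/Atp2a2 8 of 9. The slow genes Tnni1, Myl3 and Atp2a2 differed by only 0.41, -0.03 and 0.13. The values of their pairs are therefore mostly the differences of the fast genes alone, 4.31, 3.14 and 2.84. Tnni1 and Myl3 had low control means, 5.04 and 4.82, and Atp2a2 is also made by most cell types.

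In 4 pairs the test was not passed. Casq1/Casq2 differed by 2.44 (exact permutation p = 0.0727, adjusted p = 0.1), with 3 of 9 HIFU arrays above the highest control. Myoz1/Myoz2 differed by 0.88 (exact permutation p = 0.191, adjusted p = 0.233). Mybpc2/Mybpc1 differed by 0.21, with a standard deviation of 1.14 over the HIFU arrays (n = 9, exact permutation p = 0.8, adjusted p = 0.88), and Actn3/Actn2 by -0.04 with 0.69 (n = 9, exact permutation p = 0.909, adjusted p = 0.909). The Mybpc2/Mybpc1 values were -1.62, 1.59 and 0.03 in the controls, 1.20, 0.54 and 1.16 at 24 h, 0.19, 1.90 and -1.66 at 48 h and -1.09, -0.27 and -0.11 at 72 h, all above 0 at 24 h, on both sides of 0 at 48 h and all below 0 at 72 h. This order of times was not tested.

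The sizes depended on control replicate 1, whose fast signals were the lowest. Without it the median over the 11 pairs was 1.57, and Myh4/Myh7 differed by 1.53, Atp2a1/Atp2a2 by 1.57, Casq1/Casq2 by 1.5 and Myoz1/Myoz2 by 0.10. With any control left out the smallest p possible is 0.0364, and 9 pairs would have to reach it for any to pass. Of the 11 pairs 5 reached it without control replicate 1, 5 without control replicate 2 and 8 without control replicate 3.

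**Figure D3:**
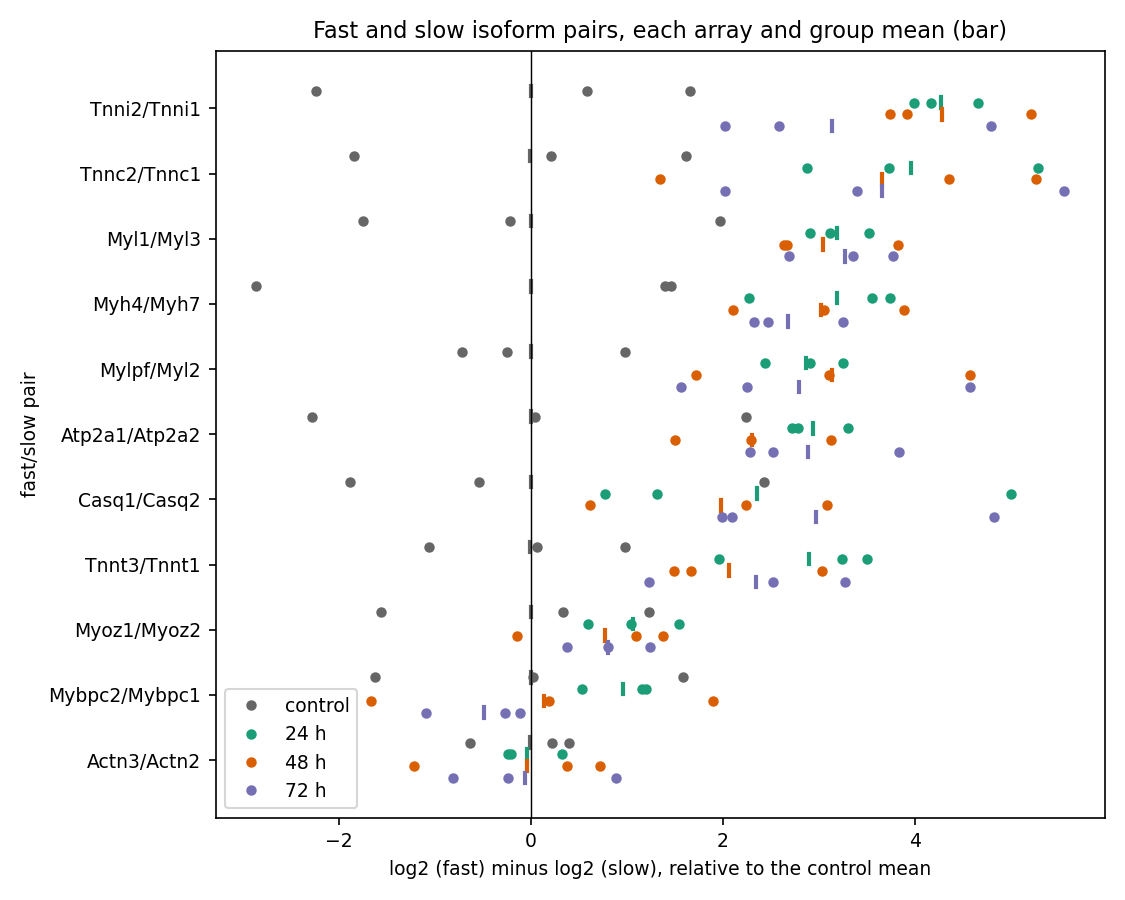
Fast minus slow log2 signal of 11 isoform pairs relative to the control mean, as 1 point per array and a bar at each group mean. In the upper 6 pairs, from Tnni2/Tnni1 (mean 3.90) to Atp2a1/Atp2a2 (2.71), each HIFU group mean lies to the right of the highest control, while Actn3/Actn2 (-0.04) and Mybpc2/Mybpc1 (0.21) scatter around 0.

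The sequences just before the gene starts are shown for the pair with the largest and the pair with the smallest difference among those with both genes in the RefSeq promoter table of GRCm38.p6, and for the fast and slow heavy chains. Of the 42 genes 34 were matched, with 42 windows of 250 bases, since some genes have several starts. Capitals mark E-boxes (CANNTG), the sites of MyoD-type factors, and matches to the MEF2 consensus, searched on both strands. Each sequence runs 5′ to 3′ toward the gene. The windows are chr2:164779735-164779984 (- strand) for Tnnc2 and chr14:31208062-31208311 (+ strand) for Tnnc1, whose fast and slow genes differed by 3.77. They are chr7:44524670-44524919 (- strand) for Mybpc2 and chr10:88605153-88605402 (- strand) for Mybpc1, which differed by 0.21, and chr11:67237562-67237811 (+ strand) for Myh4 and chr14:54994627-54994876 (- strand) for Myh7.
Tnnc2: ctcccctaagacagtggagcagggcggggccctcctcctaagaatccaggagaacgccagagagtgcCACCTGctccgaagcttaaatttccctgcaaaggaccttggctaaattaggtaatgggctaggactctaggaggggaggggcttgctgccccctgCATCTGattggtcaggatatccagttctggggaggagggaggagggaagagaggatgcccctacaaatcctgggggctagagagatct
Tnnc1: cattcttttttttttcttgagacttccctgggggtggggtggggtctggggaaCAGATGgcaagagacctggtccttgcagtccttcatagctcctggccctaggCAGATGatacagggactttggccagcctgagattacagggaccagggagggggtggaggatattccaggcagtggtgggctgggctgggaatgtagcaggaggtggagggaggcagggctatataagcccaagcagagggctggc
Mybpc2: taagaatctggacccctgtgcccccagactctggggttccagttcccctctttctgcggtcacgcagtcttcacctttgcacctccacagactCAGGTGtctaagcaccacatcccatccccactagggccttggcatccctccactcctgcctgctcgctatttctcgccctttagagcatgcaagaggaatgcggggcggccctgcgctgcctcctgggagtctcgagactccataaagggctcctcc
Mybpc1: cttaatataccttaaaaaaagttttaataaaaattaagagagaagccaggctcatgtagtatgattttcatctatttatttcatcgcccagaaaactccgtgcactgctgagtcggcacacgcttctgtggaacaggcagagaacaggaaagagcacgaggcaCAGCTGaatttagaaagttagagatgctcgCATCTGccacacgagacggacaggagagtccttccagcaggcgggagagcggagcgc
Myh4: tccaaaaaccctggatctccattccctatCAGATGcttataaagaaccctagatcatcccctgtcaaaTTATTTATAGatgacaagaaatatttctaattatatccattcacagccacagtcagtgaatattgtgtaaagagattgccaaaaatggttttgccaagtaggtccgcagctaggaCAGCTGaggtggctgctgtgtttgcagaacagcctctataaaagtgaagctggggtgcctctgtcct
Myh7: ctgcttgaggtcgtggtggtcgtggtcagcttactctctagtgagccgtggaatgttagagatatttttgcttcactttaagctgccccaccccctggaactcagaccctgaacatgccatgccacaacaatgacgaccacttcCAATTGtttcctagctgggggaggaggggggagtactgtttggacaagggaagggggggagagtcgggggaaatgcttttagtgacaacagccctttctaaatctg

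In these windows Tnnc2, Tnnc1, Mybpc1 and Myh4 held 2 E-boxes each and Mybpc2 and Myh7 held 1, and Myh4 alone held a MEF2 match and a CArG box, the site of serum response factor. Myh7 has 2 windows, of which the first listed is shown, and the other held 2 E-boxes. Over the 42 windows an E-box was present in 36 (85.7%), beside 66.2% of all 32851 windows in the table. A MEF2 match was present in 7 (16.7%, beside 2.92%) and a CArG box in 6 (14.3%, beside 1.47%). E-box, MEF2 and CArG matches overlapped each other in 0 windows, as in all 32851. The letters of these 3 patterns do not allow an overlap, so this count says nothing about the genes. By fiber type, E-boxes were in 8 of 11 fast, 14 of 14 slow and 14 of 17 windows of both types, and MEF2 matches in 3, 2 and 2. A match is a run of letters and not evidence of binding, and these counts were not tested.

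Array by array, the medians of fast genes, minus the control mean, were -1.76, -0.51 and 2.32 in the controls, 5.47, 2.44 and 3.21 at 24 h, 3.40, 4.61 and 2.99 at 48 h and 2.27, 5.99 and 3.00 at 72 h. Slow genes gave -0.15, -0.78 and 0.83 in the controls, 1.85, -0.32 and 0.32 at 24 h, 1.02, 0.74 and 0.99 at 48 h and 0.63, 2.11 and 0.42 at 72 h. In fast genes 8 of the 9 HIFU arrays lay above control replicate 3, HIFU_72h replicate 1 being slightly lower. In slow genes control replicate 3 lay above 5 of the 9. The difference between the fast and the slow median was -1.60, 0.27 and 1.49 in the controls, 3.62, 2.76 and 2.89 at 24 h, 2.38, 3.87 and 2.00 at 48 h and 1.64, 3.88 and 2.58 at 72 h, so that its lowest HIFU value, in HIFU_72h replicate 1, was close to control replicate 3. These medians are descriptions of the chosen genes and carry no test. Without control replicate 1 the difference between the fast and slow group medians at 24 h was 2.14 in place of 3.29. The slow median at 24 h moved from 0.62 to 0.01 without HIFU_24h replicate 1, to 1.02 without HIFU_24h replicate 2 and to 0.30 without control replicate 2. At 72 h it moved from 1.03 to 0.49 without HIFU_72h replicate 2 or control replicate 2 and to 1.70 without control replicate 3. For the HIFU mean it was 0.39 in place of 0.86 without control replicate 2.

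Markers of other cell types moved with the contractile genes on some arrays. The fibroblast list (7 of 8 genes measured) had array medians of -0.81, -0.53 and 1.37 in the controls, 4.39, 0.35 and 3.98 at 24 h, 2.76, 5.88 and 1.75 at 48 h and 2.61, 6.97 and 3.69 at 72 h. It was highest in HIFU_72h replicate 2 and HIFU_48h replicate 2 and was 0.35 in HIFU_24h replicate 2, where the fast median was 2.44. Over the list 6 of 7 genes were higher in the HIFU mean, with a median of 3.43. The neutrophil list (6 of 7) had medians of 0.30, -0.27 and 0.03 in the controls, 4.84, 0.72 and 3.79 at 24 h, 2.06, 5.90 and 4.55 at 48 h and 6.44, 9.85 and 6.20 at 72 h, with all 6 genes higher and a median difference of 4.82. Endothelial markers (6 of 7) lay between 0.11 and 2.36 on the HIFU arrays, against -0.17 to 0.40 in the controls.

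Neuroblastoma and sympathetic markers (9 of 11) gave -1.48, 0.03 and 1.44 in the controls, -0.16, 1.39 and -0.29 at 24 h, 1.07, -0.11 and 1.18 at 48 h and 0.38, -1.63 and 1.08 at 72 h. In the controls these tumor markers and the fast genes had the same order, lowest in replicate 1 and highest in replicate 3, while HIFU_72h replicate 2, with the highest fast median, had the lowest tumor marker median. The part of any of these lists in the differences of the contractile genes was not tested. Adipocyte markers (8 of 8) had array medians between 0.46 and 2.69 on the HIFU arrays, erythroid markers (4 of 6) between 0.25 and 3.74, keratinocyte markers (7 of 7) between -0.20 and 1.73 and Schwann cell markers (4 of 7) between -0.09 and 0.51. Medians of heart muscle markers (8 of 8) stayed between -0.06 and 0.19 on every array. Myh6, a heart myosin heavy chain, Tnni3, heart troponin I, and Nppa, the atrial natriuretic peptide, were at 4.20 or lower on all 12. The exception in that list was Tbx20, a heart transcription factor, which differed by -1.29 ± 0.51 SE (adjusted p = 0.282). Smooth muscle markers (8 of 8) had a median difference of 0.47, with 6 higher, among them Synpo2 by 1.63 ± 0.60 SE, Smtn by 0.74 ± 0.39 SE and Lmod1 by 0.59 ± 0.16 SE, and 2 lower. Acta2, smooth muscle actin, was 1 of the 2, with a difference of -0.91 ± 0.47 SE.

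**Figure D4:**
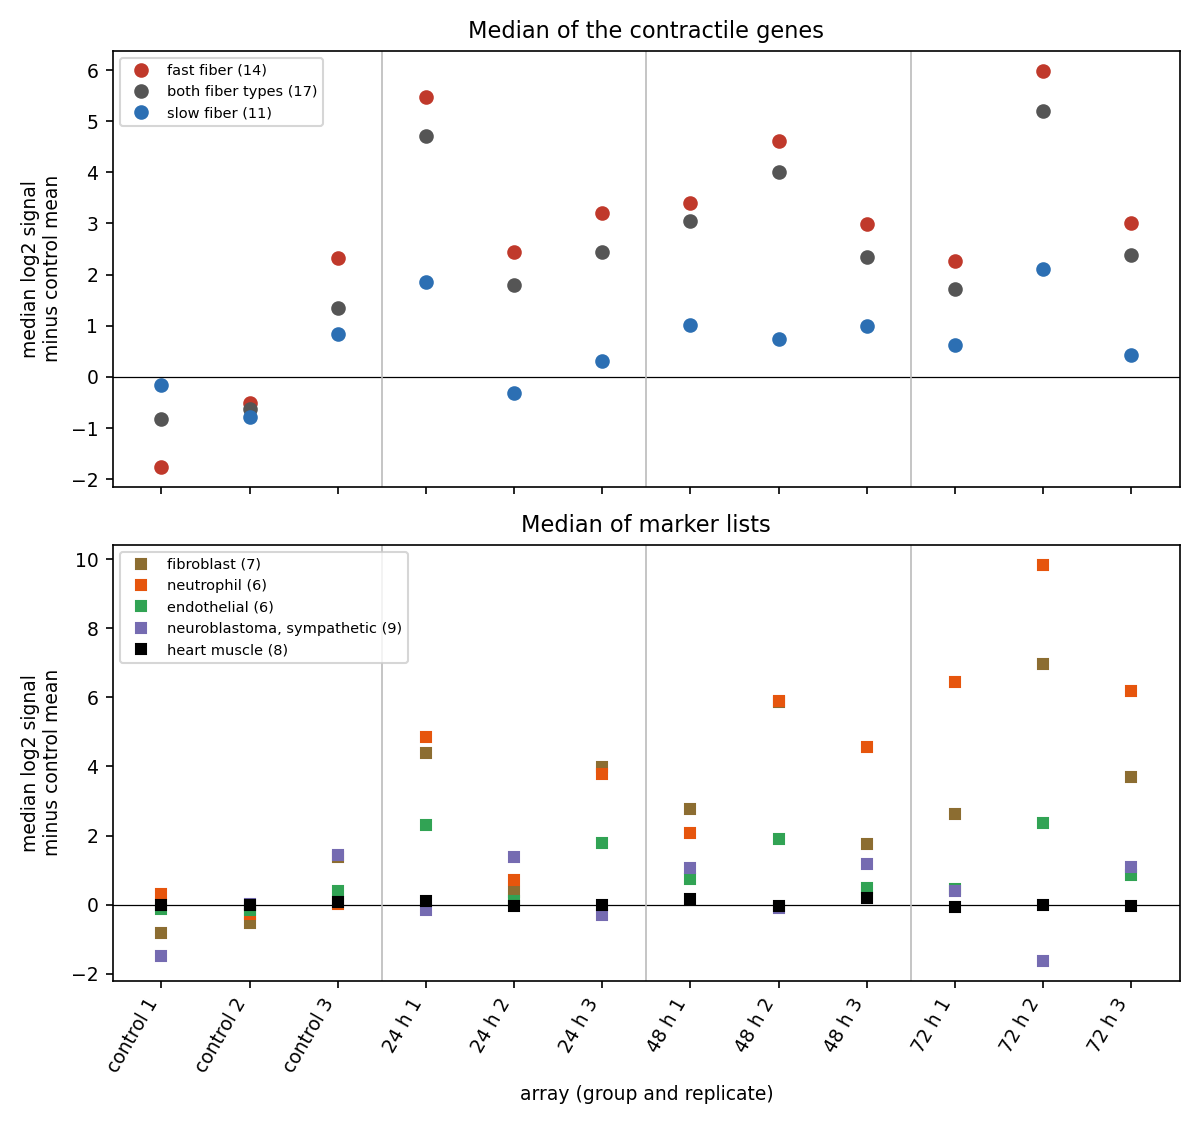
Median log2 signal minus control mean on each array for fast, slow and shared contractile genes (top) and for marker lists of other cells (bottom), with the number of genes in brackets. Fast medians reach 5.47 in HIFU_24h replicate 1 and 5.99 in HIFU_72h replicate 2, and heart markers stay near 0.

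Most other sarcomere, Z-disc and triad genes were also higher in the HIFU tumors. Of 30 listed 29 were measured, and 28 were higher at each time, with medians of 2.61, 2.25 and 2.26. Of these 0 passed over all probe sets (limma), and 17, 20 and 18 were higher at an unadjusted p under 0.05, beside 3.98%, 5.3% and 5.85% of all probe sets. Myot, myotilin of the Z-disc, differed by 4.65, 4.92 and 3.94 at 24, 48 and 72 h, and Nrap, which helps assemble myofibrils, by 4.03, 4.51 and 3.26. Ankrd2, a stretch-responsive ankyrin repeat protein, differed by 4.96, 3.91 and 2.01. Klhl40, which stabilizes thin filament proteins, differed by 4.68, 2.68 and 1.51 (72 h against 24 h, unadjusted p = 0.00359, limma adjusted p = 0.699). For each of these named genes the 72 h value was the lowest. Over the whole list 18 of 29 genes were higher and 11 lower at 72 h than at 24 h, with a median of 0.25. At an unadjusted p under 0.05 (limma) 3 of the 29 were lower and 0 higher, and 0 passed after adjustment. Of all 22206 probe sets 521 were lower and 715 higher at that threshold.

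Among the contractile genes themselves no difference between times passed the test. In limma 0 of 42 passed for 48 h against 24 h, 72 h against 48 h or 72 h against 24 h, as did 0% of all probe sets in each, and 0 had an unadjusted p under 0.05, beside 3.89%, 6.26% and 5.57% of all probe sets. The widest differences were 1.27 for Tcap at 48 h against 24 h, 2.04 for Casq1 at 72 h against 48 h and 1.96 for Tcap at 72 h against 24 h. Downward they were -0.58 for Xirp2, -1.10 for Ttn and -0.70 for Tnni2 in the same order. The 3 comparisons with control share their control arrays. Fast medians were 3.91, 3.68 and 3.80 at 24, 48 and 72 h and slow medians 0.62, 0.77 and 1.03.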

How the data were processed

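RNA of 12 tumors was measured on Affymetrix Mouse Clariom S arrays, 3 per group. The authors deposited 1 log2 signal for each probe set and array. They used Transcriptome Analysis Console 4.0, per the submitters' processing notes; how signals were summarized, normalized and filtered, and the genome build, is not given in the sources used here. The values were used without rescaling, so a shift shared by most genes may have been removed before deposit. The number of arrays limits the precision.

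Gene symbols came from the platform annotation and a RefSeq table of GRCm38.p6 (of 22206 probe sets 19572 had 1 symbol, 0 several and 2634 none). Groups were compared with limma 3.58.1 under R 4.3.3 (a linear model with eBayes, a mean per group over all 12 arrays, prior degrees of freedom 3.37), two-sided, with Benjamini-Hochberg adjustment over all 22206 probe sets and a threshold of 0.05. Isoform pairs were tested with scipy 1.17.1 in Python 3.11.15. The fit and the pair test were checked on simulated data. The genes, the lists and the pairs were chosen with earlier results of these data known. Values of every array are given for genes of the pairs, the 6 genes of both fiber types with the smallest p of the F test over times, Acta1, Ckm and Des, and a few more where a description rests on them (Myh1, Myh2, Pvalb, Tpm3, Cav3). From other lists up to 4 genes by the F test are named, with Dbh, Acta2 and 3 heart genes added after their values were seen. RefSeq protein sequences were not used here.

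Alternatives were a block for the replicate number, quantile normalization, median centring, dropping the lowest 25% of probe sets, eBayes with a trend and robust fitting, weights per array, fits on the compared groups alone, averaging the probe sets that name a gene, and omitting single arrays.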

Additional observations from a re-analysis of the deposited data

How the results depend on the processing

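The count of contractile genes past the threshold was 0 at each time and for the HIFU mean, also with a block for the replicate number, quantile normalization, median centring, an intensity trend, fits on the compared groups alone, averaging of probe sets and without the lowest 25% of probe sets. Averaging does not alter the values of these genes, which have 1 probe set each, and can act on the count only through the other genes. With array weights it was 30 at 24 h, 20 at 48 h, 28 at 72 h and 35 for the mean, beside 5.03%, 4.25%, 8.31% and 17.1% of all probe sets. Leaving out 1 array at a time, it ranged from 0 to 6 at 24 h, 0 to 6 at 48 h, 0 to 4 at 72 h and 0 to 13 for the mean; at most 1.14%, 1.41%, 0.874% and 1.79% of all probe sets passed. The cause was not tested. The fast minus slow difference of medians stayed positive with quantile normalization, with array weights and when 1 array was left out. With 1 array left out it ranged from 2.14 to 4.06 at 24 h, from 2.07 to 3.67 at 48 h, from 1.89 to 3.31 at 72 h and from 2.09 to 3.75 for the mean. A replicate block, median centring, averaging of probe sets and dropping the lowest 25% of probe sets leave this difference unchanged by construction. It was not computed for the intensity trend or for fits on the compared groups alone. The count of isoform pairs that passed was 7 with quantile normalization; median centring and averaging of probe sets cannot change these within-array differences of genes with 1 probe set. It ranged from 0 to 7 with 1 array left out. It was 0 with a replicate block, where 64 labellings allow a smallest p of 0.0312, 7 pairs would have to reach it and 6 did. Same-numbered arrays of different groups deviated from their group means with correlations from -0.608 to 0.625 (median -0.134), so the numbers were not taken to pair the tumors. Differences near 0 changed sign. Tpm3 was 0.05 with quantile normalization and Myl3 0.16 with array weights, and with 1 array left out Myl3 ranged from -0.18 to 0.21, Tnni1 from -0.04 to 0.83, Tpm3 from -0.23 to 0.04, Atp2a2 from -0.04 to 0.28, Cav3 from -0.53 to 0.19, Actn3/Actn2 from -0.35 to 0.16 and Mybpc2/Mybpc1 from -0.60 to 1.00. A low signal, as in Casq2, Myl3, Tnni1 and Cav3, limits what could be seen. So does a signal near the array's upper end, as in Acta1 and Atp2a1.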

Other observations

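Genes of developing or regenerating fibers (10 of 10 measured) had a median difference of 0.28 at 24 h and 0.99 at 72 h, while 0 passed over all probe sets (limma). At an unadjusted p under 0.05, 2 at 24 h and 5 at 72 h were higher, beside 3.98% and 5.85% of all probe sets. By array the list's median was -0.03, -0.10 and -0.04 in the controls, 0.48, 0.12 and 0.45 at 24 h, 0.31, 1.4 and 0.25 at 48 h and 0.39, 2.39 and 0.42 at 72 h, so that at 72 h HIFU_72h replicate 2 stood alone and the other 2 arrays lay within the range at 24 h. Actc1, the actin of heart and embryonic muscle, differed by 0.59, 1.21 and 1.04 at 24, 48 and 72 h. Myh3, the embryonic heavy chain, differed by 0.38, 0.92 and 1.84, and its signals were 4.01, 4.16 and 4.99 in the controls, 4.98, 4.05 and 5.26 at 24 h, 4.82, 5.87 and 5.23 at 48 h and 5.28, 7.63 and 5.78 at 72 h. HIFU_72h replicate 2 held the highest of these. Myh8, the perinatal heavy chain, read 11.46, 14.34 and 17.53 in the controls, 19.78, 17.94 and 18.87 at 24 h, 18.94, 19.51 and 18.01 at 48 h and 17.59, 19.77 and 18.28 at 72 h, on several arrays near the upper end. Over the 12 arrays its Pearson r was 0.994 with Myh4, its neighbor in the heavy chain cluster of chromosome 11, and 0.993 with Myl1, given as a description. Whether the Myh8 and Myh4 probe sets share targets was not tested.

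Tendon markers (6 of 6) had median differences of 0.43, 0.22 and 1.30 at 24, 48 and 72 h, and 0 passed (limma). At an unadjusted p under 0.05, 0, 2 and 3 were higher, beside 3.98%, 5.3% and 5.85% of all probe sets. At that threshold 0, 1 and 0 were lower, beside 1301, 1779 and 1197 of all 22206 probe sets. Comp, a cartilage and tendon matrix protein, read 4.32, 4.40 and 3.46 in the controls, 4.48, 4.19 and 4.43 at 24 h, 3.83, 4.07 and 4.41 at 48 h and 5.48, 7.86 and 5.68 at 72 h, highest in HIFU_72h replicate 2. Fmod, the collagen-binding fibromodulin, read 9.37, 8.04 and 6.04 in the controls, 7.02, 5.71 and 5.92 at 24 h, 4.96, 6.33 and 6.41 at 48 h and 9.29, 10.98 and 7.95 at 72 h. All 3 arrays at 72 h lay above the 24 and 48 h arrays, by 3.19 ± 0.87 SE at 72 h against 24 h with an unadjusted p of 0.00362 (limma adjusted p = 0.7).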
